A study of Mus musculus with 82 samples.

Results

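The major histocompatibility complex (MHC) class II genes were followed through the blood stem and progenitor cells of the study as the 7 genes Cd74, H2-Aa, H2-Ab1, H2-Eb1, Ciita, H2-DMa and H2-DMb1, chosen by symbol from the 55376 genes of the deposited count tables. All 7 had reads in each of the 30 mRNA-seq libraries and all 7 passed the filter on low counts in each comparison. Histone peaks were taken by the gene name the authors gave them, and open regions by their overlap with the genes. The HSC donors were C57BL/6J males. Young hematopoietic stem cells (YHSCs, 4 mRNA-seq libraries, each from pooled mice) and old HSCs (OHSCs, 8 libraries, each from an individual mouse) were sorted as LSK CD34- Flk2- CD150+ bone marrow cells, where LSK stands for lineage-negative, Sca-1+ and Kit+. OHSCs transduced with lentivirus for a control shRNA or for 1 of a pair of shRNAs (shRNA1, shRNA2) directed at Btaf1's shorter variant were profiled as GFP+ cells after culture, and as CD45.2+ GFP+ LSK CD48- CD150+ cells recovered from lethally irradiated CD45.1 recipients (2 libraries per shRNA in each experiment, the transplanted ones from pools of recipients). The virus, old donors and GFP sort are thus shared by all shRNA libraries, controls included. The recipients were young females, and the cultured cells were sorted within days of transduction. Young common myeloid (CMP), granulocyte-macrophage (GMP) and megakaryocyte-erythroid progenitors (MEP) had 2 libraries each. Chromatin was measured in YHSCs and OHSCs, with 4 ATAC-seq libraries per age used here, 2 H3K27ac libraries per age, and 2 YHSC libraries each of H3K4me3 and H3K27me3.

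MHC class II molecules are heterodimers of an alpha and a beta chain that carry peptides from endosomes to the cell surface for recognition by CD4+ T cells, and they are best known from B cells, dendritic cells and macrophages. The invariant chain Cd74 guards the empty groove and guides the dimer to the endosome, where H2-DM removes the last invariant chain fragment and edits the peptide. The coactivator Ciita binds no DNA by itself and acts through factors assembled on the X and Y boxes of class II promoters. In mouse, H2-Aa and H2-Ab1 encode the chains of I-A, H2-Eb1 the beta chain of I-E, and H2-DMa and H2-DMb1 the chains of H2-DM. The functional I-E alpha chain is missing from C57BL/6 mice, so the H2-Eb1 values are of RNA only.

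On mm10, 5 of the 7 genes lie within the MHC on chromosome 17 (H2-DMa chr17:34122832-34139101, H2-DMb1 chr17:34153191-34160229, H2-Ab1 chr17:34263227-34269418 and H2-Eb1 chr17:34305867-34316674 on the plus strand, and H2-Aa chr17:34282744-34287823 on the minus strand). Ciita lies at chr16:10480072-10527640 on the plus strand. The upstream sequences of H2-Aa, H2-Eb1, the H2-DM genes and H2-Ob are shown as examples with and without the letters of the X and Y boxes through which Ciita works. They run from 130 to 31 bases before the RefSeq start, 5′ to 3′ on the gene's strand. Capitals mark GNAAC followed after 2 or 3 bases by TGANG, which are the outer parts of the X box, and TGATTGG, the Y box core.
H2-Aa (chr17:34287854-34287953, minus strand): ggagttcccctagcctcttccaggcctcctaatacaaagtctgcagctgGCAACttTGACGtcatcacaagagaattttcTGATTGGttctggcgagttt
H2-Eb1 (chr17:34305737-34305836, plus strand): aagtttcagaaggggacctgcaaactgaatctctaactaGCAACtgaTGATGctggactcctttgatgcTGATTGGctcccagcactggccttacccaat
H2-DMb1 (chr17:34153061-34153160, plus strand): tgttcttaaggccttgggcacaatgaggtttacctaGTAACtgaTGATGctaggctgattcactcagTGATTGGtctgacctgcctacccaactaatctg
H2-Ob (chr17:34238775-34238874, plus strand): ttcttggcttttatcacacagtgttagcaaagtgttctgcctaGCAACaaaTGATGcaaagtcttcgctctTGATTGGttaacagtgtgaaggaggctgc
H2-DMb2 (chr17:34145119-34145218, plus strand): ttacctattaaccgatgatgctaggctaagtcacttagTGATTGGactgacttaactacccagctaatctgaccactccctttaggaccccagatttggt
H2-DMa (chr17:34122702-34122801, plus strand, the first of its starts): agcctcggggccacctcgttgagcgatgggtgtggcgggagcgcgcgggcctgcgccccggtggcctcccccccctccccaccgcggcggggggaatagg

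In H2-Aa, H2-Eb1, H2-DMb1 and H2-Ob the X and Y letters stood on the gene's strand with 15 to 19 bases between them. In H2-DMb2, which encodes an alternative H2-DM beta chain, the Y letters alone were matched. In H2-DMa neither was, at the printed start and at the other listed start. The same stretch of H2-Oa and H2-Eb2, not printed here, also held the Y letters alone. Searched on both strands in 32851 RefSeq promoter windows of mm10, which run from 250 bases before to 50 bases after a start, TGATTGG was found in 7.82%, the X letters in 1.81%, and both on the same strand with 5 to 40 bases between them in 11 windows (0.0335%). The letters were chosen after the sequences had been seen, and a match or its absence is a description of these windows only. The promoter table held no entry for H2-Ab1 and Ciita, and the stretch before Cd74 was not examined.

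The classical class II genes and Cd74 were abundant in freshly isolated HSCs. Levels are given as CPM, a gene's reads scaled to the size of its library, and between genes as CPM per kilobase of exon. Cd74 (chr18:60803849-60812652, plus strand) had the highest level of the members in YHSCs at 332 ± 56.3 CPM per kb (SD, n = 4), rank 69 among 21328 genes. H2-Ab1 followed at 70.0 ± 10.7 CPM per kb, rank 595. H2-Aa at 46.3 ± 5.20, H2-Eb1 at 41.2 ± 6.71, H2-DMb1 at 39.8 ± 1.35 and H2-DMa at 36.7 ± 1.37 CPM per kb had ranks from 1105 to 1567, and the neighbours H2-Aa, H2-Eb1 and H2-DMb1 differed by less than the larger of their SDs. Ciita was at 2.04 ± 0.3998 CPM per kb, rank 12477. All 10 HSC markers (among them Procr, Hlf, Fgd5 and Slamf1) had reads in both ages, with summed levels of 5215 to 5467 CPM in YHSCs and 5114 to 5714 CPM in OHSCs.

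In CPM, Cd74 stood at 445, 527, 589 and 668 in the 4 YHSC libraries and between 169 and 635 (median 408) in the 8 OHSC libraries. In the transplanted controls Cd74 was at 386 and 531 CPM, within the range of the fresh OHSCs. In the cultured controls it was at 3.24 and 5.00 CPM, in CMP at 11.5 and 16.1, in GMP at 4.09 and 11.3, and in MEP at 1.61 and 1.51. All fresh and transplanted HSC libraries therefore lay above all cultured and progenitor libraries, while the cultured controls and GMP overlapped. The experiments differed in gate and cell state and, between fresh and shRNA libraries, in the labelled library kit, so these levels stand side by side and were not tested against each other.

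**Figure D1:**
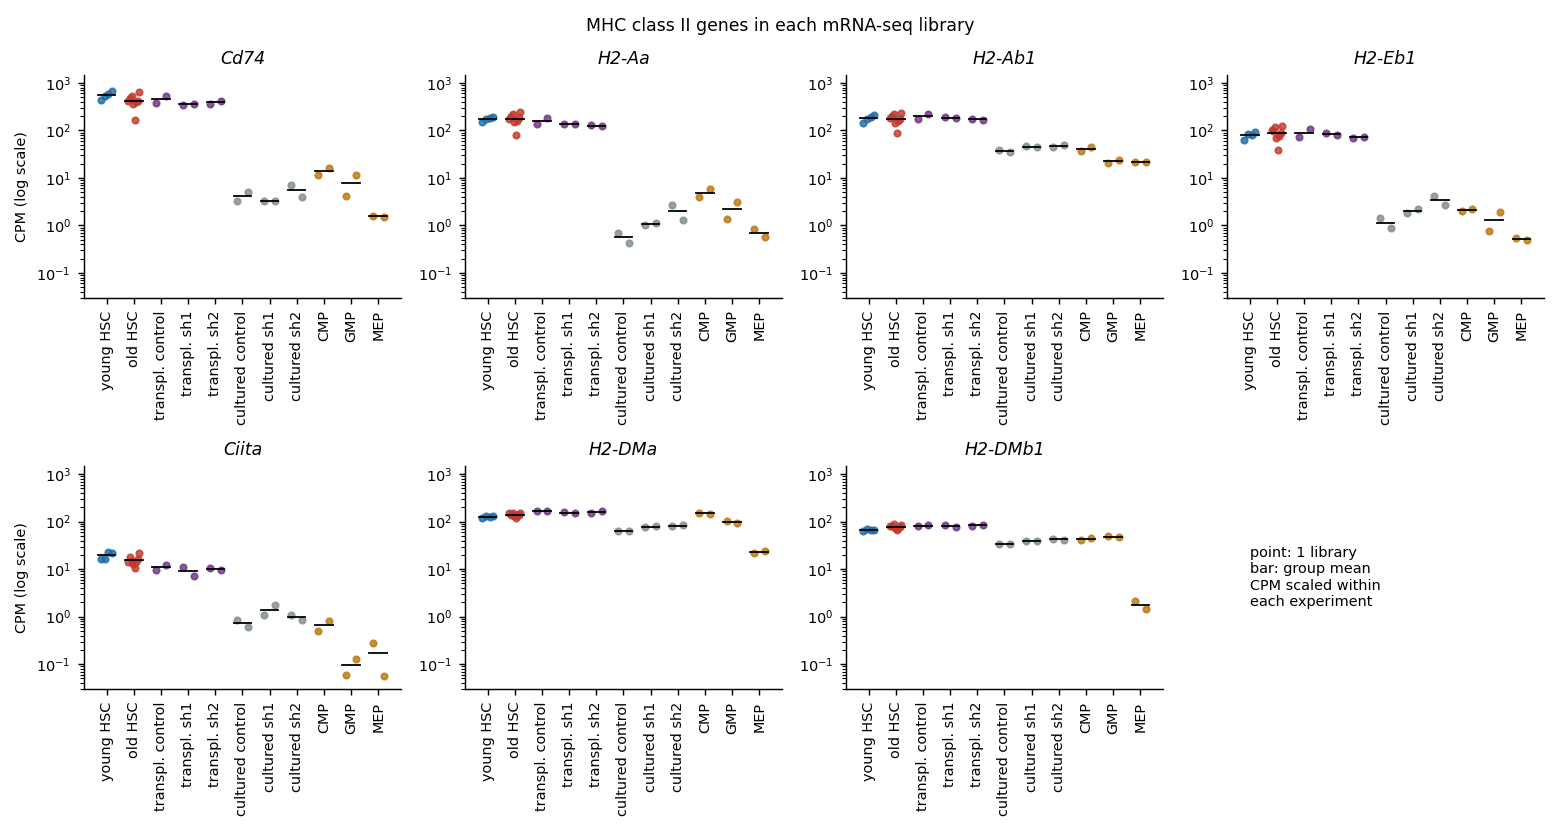
CPM of the 7 genes (log scale) in each mRNA-seq library by group, with points for libraries and bars for group means; CPM were scaled within each experiment. Cd74, H2-Aa and H2-Eb1 are high in fresh and transplanted HSCs and low in cultured HSCs and progenitors, while H2-DMa and H2-DMb1 are lowest in MEP.

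Cultured and transplanted HSCs came from the same kind of donor and virus, and the members differed widely in the ratio of these states. H2-Aa, the alpha chain of I-A, was at 0.709 and 0.433 CPM in the cultured controls (30 and 16 counts) and at 136 and 178 CPM in the transplanted controls, a ratio of means of 275. For Cd74 the ratio was 111 and for H2-Eb1 77.0, with H2-Eb1 at 1.42 and 0.865 CPM in culture and 71.0 and 105 CPM after transplantation. Ciita was at 0.850 and 0.595 CPM in culture and at 9.72 and 12.2 CPM after transplantation, a ratio of 15.2. H2-Ab1, whose product pairs with that of H2-Aa, had a smaller ratio of 5.35, with 38.6 and 35.0 CPM in culture and 172 and 221 CPM after transplantation. Over all libraries of each state, shRNA libraries included, the ratios were smaller, at 114 for H2-Aa, 94.0 for Cd74, 36.4 for H2-Eb1, 9.65 for Ciita and 4.29 for H2-Ab1. The H2-DM genes had the smallest control ratios of the members, H2-DMa with 64.5 and 65.0 against 169 and 167 CPM (2.59) and H2-DMb1 with 34.6 and 34.3 against 81.4 and 84.4 CPM (2.41). Cultured cells were sorted on GFP and recovered cells on GFP and HSC markers, and fewer class II-expressing cells and less RNA per cell cannot be told apart in these bulk samples. The states also differed in time since transduction and in the young female host of the recovered cells.

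Defining markers of professional antigen-presenting cells were at or near 0 in the transplanted controls, apart from Clec9a, Zbtb46 and C1qa. The B cell gene Cd79a had 3 to 8 counts, Ms4a1 0, the dendritic cell gene Xcr1 2 counts in each library and the plasmacytoid gene Siglech 0. The summed level of the 10 B cell markers, 7 of which had reads, was 28.5 to 30.99 CPM, against 17.7 to 18.02 CPM in the cultured controls. Clec9a had 159 to 268 counts, Zbtb46 141 to 149 and the macrophage gene C1qa 42 to 82. Of the dendritic cell list 6 of 8 markers had reads (sum 39.6 to 47.5 CPM), against 11.7 to 12.5 CPM in the cultured controls. All 10 monocyte and macrophage markers had reads in the transplanted controls (34.4 to 41.5 CPM), with Adgre1 at 8 counts in each library. In the cultured controls 6 had reads (41.2 to 44.8 CPM), while C1qa and Adgre1 had no count. The 10 HSC markers summed to 2349 to 2388 CPM in the cultured controls and to 4252 to 4367 CPM in the transplanted controls. Procr was at 43.0 to 44.1 CPM in culture and 189 to 205 CPM after transplantation, and Hlf at 146 to 147 and 339 to 412 CPM. Slamf1 overlapped (74.8 to 78.3 and 73.0 to 87.3 CPM). Neutrophil markers reached 520 CPM in a transplanted shRNA1 library and 109 in a transplanted control, against at most 2.20 CPM in any cultured library. The part of these cell types in the class II levels was not tested.

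To ask whether the class II genes change with age, 8 OHSC libraries were compared with 4 YHSC libraries. With edgeR's quasi-likelihood test 0 of the 7 genes passed both a 1.5-fold change and an adjusted p of 0.05, where 7.52% of the 21522 genes tested were called in either direction. DESeq2 also called 0. At an unadjusted p below 0.05 without regard to fold stood 2 of the 7 with edgeR, H2-DMa and H2-DMb1, beside 30% of all genes, and with DESeq2 Ciita as well. Cd74 had a mean of 557 ± 94.6 CPM (SD, n = 4) in YHSCs and 423 ± 137 CPM (SD, n = 8) in OHSCs, with overlapping ranges, and its log2 fold change was -0.40 (SE 0.28, adjusted p = 0.40). H2-Aa was at 176 ± 19.7 and 176 ± 50.0 CPM and H2-Ab1 at 180 ± 27.4 and 174 ± 46.5 CPM, and their differences were 0.0016 and -0.05 on the log2 scale, less than the spread between libraries. H2-Eb1 was at 80.1 ± 13.0 in YHSCs and 89.6 ± 28.1 CPM in OHSCs (log2 fold change 0.16, adjusted p = 0.76).

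The H2-DM genes varied less between libraries than the other members did. H2-DMb1 was at 65.0, 70.0, 65.5 and 67.2 CPM in YHSCs and from 66.8 to 90.5 (median 79.4) CPM in OHSCs. It was 0.23 higher on the log2 scale in OHSCs (SE 0.062, adjusted p = 0.0083), the only member past an adjusted p of 0.05 without regard to fold, as were 20.6% of all genes. Against YHSC replicates 1 and 2 alone the value was 0.23 again and the adjusted p 0.094, and its adjusted p was 0.00087 to 0.036 under all other alternatives. H2-DMa was at 119 to 129 CPM in YHSCs and 117.4 to 154 CPM in OHSCs (log2 fold change 0.15, adjusted p = 0.075), and its adjusted p was 0.035 without the filter, 0.036 with the replicate block, 0.031 with OHSC replicates 1 to 4, 0.047 without OHSC replicate 4 and 0.0092 without OHSC replicate 5. Ciita was at 16.0, 16.4, 23.2 and 22.2 CPM in YHSCs and from 10.8 to 21.6 (median 14.4) CPM in OHSCs, a difference of -0.34 (SE 0.16, adjusted p = 0.17), with an adjusted p of 0.014 without the filter and 0.027 without OHSC replicate 8.

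YHSC libraries held more B cell RNA than OHSC libraries. Cd79a had 294 to 766 counts in YHSCs and 7 to 30 in OHSCs. Of 10 B cell markers, all of which had reads, 8 were lower in OHSCs, with log2 fold changes of -4.71 for Cd79a, -4.504 for Ms4a1 and -3.07 for Cd22, and with a summed level of 129 to 264 CPM in YHSCs and 38.3 to 203 CPM in OHSCs. The OHSC library with 203 CPM was replicate 7. Within the YHSCs, replicate 1 was lowest for all 7 genes and for the B cell sum, and replicate 4 was highest for Cd74, H2-Aa, H2-Ab1, H2-Eb1 and the B cell sum. Against YHSC replicates 1 and 2 alone, which hold the least B cell RNA, the log2 fold change of Cd74 was -0.19 (adjusted p = 0.86), that of H2-Ab1 turned to 0.13, and 0 members were called. The libraries left out are also the highest for Cd74 and H2-Ab1, so these values say nothing of B cell RNA as a source. Summed dendritic cell markers were at 50.2 to 57.5 CPM in YHSCs and 35.5 to 44.6 CPM in OHSCs, but their genes went both ways (of 5 tested Flt3 at -0.90 and Zbtb46 at -0.76 were lower and Clec9a at 1.07 higher, list median 0.038). GMP markers summed to 125 to 152 and 289 to 344 CPM, with Prtn3 higher (1.32) and Mpo lower (-3.25) of 4 tested (list median -0.30). Plasma cell markers summed to 261 CPM in YHSC replicate 4 and to at most 38.8 CPM in any other fresh library. Neutrophil markers summed to 4.78, 4.25, 185 and 104 CPM in YHSC replicates 1 to 4, so that both libraries left out above were also high in them, and to 3.39 to 95.6 CPM in OHSCs (0 of 5 tested were called, list median -2.09). The part of these cells' RNA in the age differences was not tested.

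The other class II and antigen presentation genes gave the following counts between ages, beside 2.83% of all genes called lower in OHSCs, 4.69% called higher and a median log2 fold change of -0.0073 over all genes tested. Of the 4 other class II genes, 2 were lower in OHSCs and 0 higher (median -0.47), namely H2-DMb2 (-1.17, adjusted p = 0.0072) and H2-Ob (-0.73, adjusted p = 4.8e-05), the beta chain of the H2-DM inhibitor H2-O. H2-DMb2 was at 6.87, 9.86, 13.0 and 18.7 CPM in YHSCs and at 3.34 to 7.72 CPM in OHSCs, and since it is a near copy of H2-DMb1, how reads were split between both genes is uncertain. Of 9 processing genes, the endosomal protease Lgmn was higher (1.36) and the ubiquitin ligase March1 (-1.69) and the protease Ctss (-1.40) were lower (median 0.15). Among 18 regulators of class II transcription, 4 were lower, including Spib (-4.93), Irf4 (-2.05) and Pax5 (-1.73), and the repressor Bcl6 was higher (1.29, list median -0.21). Of 6 costimulation genes 3 were lower, Cd83 (-2.90), Cd86 (-2.66) and Cd40 (-1.70), with a median of -1.28. None of 13 class I pathway genes (median 0.046) and of 16 interferon gamma response genes (median -0.11) was called by edgeR, while 4 and 3 of them had an unadjusted p below 0.05. Pax5 is also on the B cell marker list.

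The classical genes and Cd74 varied widely between libraries of the same age. Among OHSCs the highest library exceeded the lowest 3.76-fold for Cd74, 3.01-fold for H2-Aa, 2.67-fold for H2-Ab1 and 3.19-fold for H2-Eb1. The SD of log2 CPM was 0.57 for Cd74, larger than that of 99.7% of the 10947 genes at 10 CPM or more, whose median was 0.095. It was 0.49 for H2-Aa, 0.45 for H2-Ab1, 0.53 for H2-Eb1 and 0.30 for Ciita (98.3%), but 0.13 for H2-DMa (77.8%) and 0.14 for H2-DMb1. All 7 genes were lowest in OHSC replicate 5, where Cd74 stood at 169, H2-Aa at 81.5 and H2-Eb1 at 39.6 CPM, and 6 were highest in replicate 8 (Cd74 at 635, H2-Aa at 245, H2-Eb1 at 126 CPM). H2-DMb1 was highest in replicate 3. Each OHSC library is an individual mouse, so animal and library cannot be told apart.

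**Figure D2:**
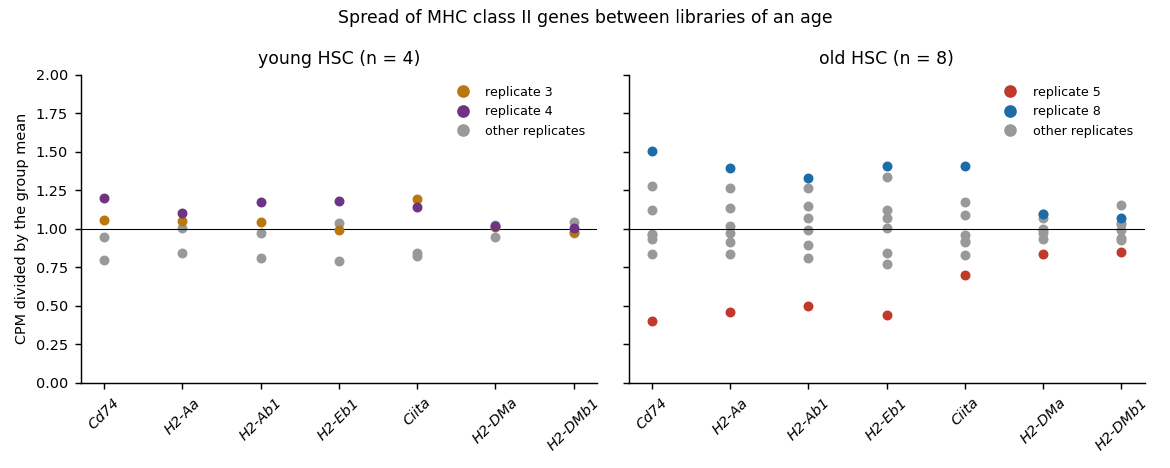
CPM of each gene divided by its mean over the age group, for 4 YHSC and 8 OHSC libraries, with the libraries named in the keys in colour. OHSC replicate 5 lies lowest for all 7 genes and replicate 8 highest for 6, and H2-DMa and H2-DMb1 stay close to 1.

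Sums of B cell, dendritic cell and HSC markers were close in OHSC replicates 5 and 8. B cell markers summed to 51.5 CPM in replicate 5 and 49.1 in replicate 8, dendritic cell markers to 42.5 and 39.7, and HSC markers to 5489 and 5421. Monocyte and macrophage markers summed to 35.95 CPM in replicate 5 and 59.3 in replicate 8, within a range of 35.0 to 137, and the maximum was in replicate 3. Erythroid markers summed to 42.3 CPM in replicate 5 and 178 in replicate 8, the highest of the OHSCs. Their part in the spread was not tested.

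Taking the mean of the members' standardized log2 CPM as a profile, the genes most like it could be named in 2 ways, both as descriptions. Over the deviations of the 30 libraries from their group means, the 10 nearest among 15946 genes, members left out, were H2-Q4 (Pearson r = 0.82), Apol10b (0.82), Serpina3f (0.81), Ifi27l2a (0.79), Gbp7 (0.78), Slamf8 (0.77), Gvin1 (0.77), Tuba8 (0.75), Gm26847 (0.75) and Iigp1 (0.74). The members' own r to this profile, which contains them, ran from 0.72 for H2-DMa to 0.95 for H2-Eb1. Over the means of the 11 groups the nearest genes were Fam120b, Malat1, Inpp5k, Rab11b, Gm37376, Gm15747, Taz, Dhx57, Ankrd16 and Aqp10-ps (r = 0.99 each). Points of an experiment share its scaling.

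Chromatin at the genes was open in HSCs of both ages. Of 31 open regions within the genes or up to 5000 bases before them, 28 passed the filter and 0 were called by edgeR (1.5-fold, adjusted p of 0.01), beside 13% of the 89245 regions tested. DESeq2 also called 0. At an unadjusted p below 0.05, 11 of the 28 were lower in OHSCs and 0 higher, where 20.4% of all regions were lower at that p. The promoter region of Ciita, which overlaps the start of a shorter transcript, had the highest promoter level, 19.4 ± 0.802 CPM in YHSCs and 19.8 ± 1.199 CPM in OHSCs (SD, n = 4 each). The promoter region of H2-DMb1 was at 9.77 ± 0.246 and 9.85 ± 0.570 CPM (SD, n = 4 each).

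The promoter regions of the classical genes had values slightly below 0 on the log2 scale (OHSC over YHSC) that did not pass the threshold. The H2-Aa region had 9.64, 9.84, 10.1 and 10.1 CPM in the YHSC libraries and 9.32, 7.84, 8.24 and 8.28 CPM in the OHSC libraries (log2 fold change -0.24, adjusted p = 0.083), without overlap between ages. H2-Eb1 was at 7.97 ± 0.720 and 6.64 ± 0.187 CPM (-0.26, adjusted p = 0.092), also without overlap. H2-Ab1 (11.99 and 10.3 CPM, -0.23) and Cd74 (14.4 and 13.1 CPM, -0.14) overlapped between ages. The share of all regions without overlap was not counted, and 38023 of 89245 had an unadjusted p below 0.05 in either direction. The promoter region of H2-DMa (17.9 and 15.5 CPM, -0.21) overlaps the neighbouring gene Brd2, as do the regions upstream of it.

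**Figure D3:**
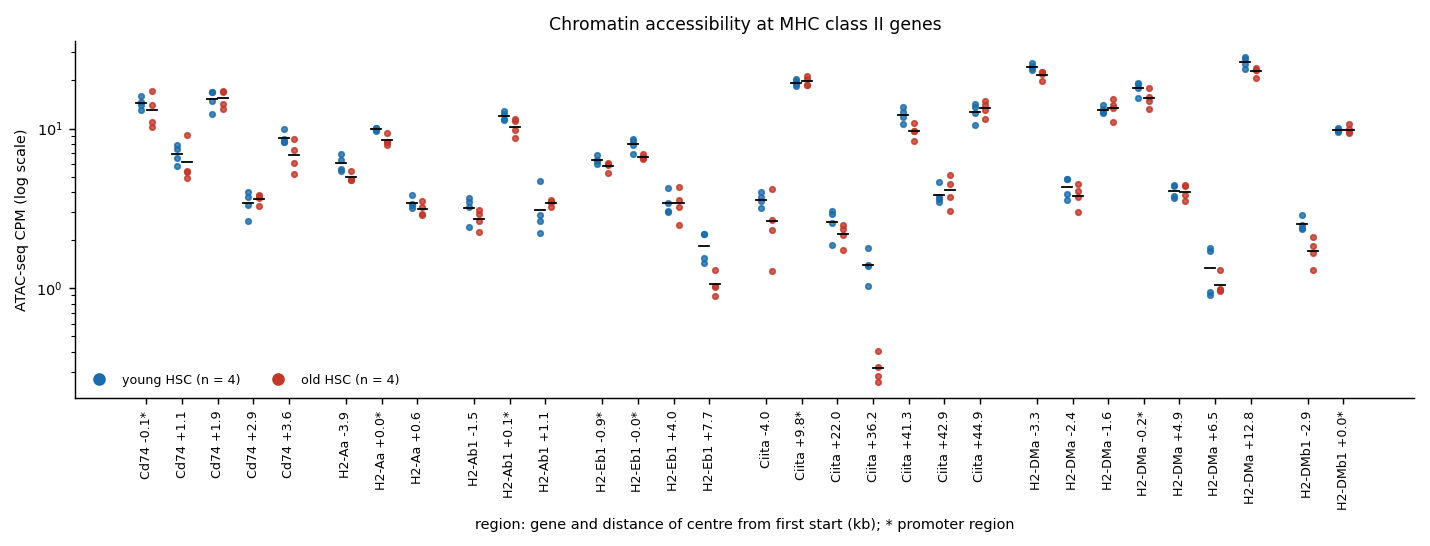
ATAC-seq CPM (log scale) of the 31 open regions at the genes in 4 YHSC and 4 OHSC libraries, with points for libraries and bars for means, ordered along each gene by the distance of the region's centre from the start. Most regions overlap between ages, and an intronic Ciita region 36.2 kb from the start is lower in all OHSC libraries.

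A weak region inside Ciita fell under the filter. Over all regions, the count called without the filter was within 1.5 times of the 11591 called with it. At chr16:10516076-10516501, within an intron, the YHSC libraries had 34, 15, 45 and 35 counts and the OHSC libraries 5, 8, 7 and 10. Mean levels were 1.40 ± 0.304 and 0.316 ± 0.0635 CPM (SD, n = 4 each), a ratio of 0.226. Tested without the filter, its log2 fold change was -2.16 (SE 0.36, adjusted p = 1.9e-06). The other region called that way, in an intron of H2-Eb1 at chr17:34313488-34313729, was at 1.83 ± 0.394 and 1.06 ± 0.171 CPM (-0.84, adjusted p = 0.0094). Both were named after their values were seen. Without the OHSC ATAC-seq replicate 7, a region upstream of Ciita at chr16:10475763-10476426 was also called (-0.78, adjusted p = 0.0024), which with that library was at -0.45 (adjusted p = 0.10). B cell RNA was higher in YHSC mRNA libraries, and whether the ATAC-seq samples held B cells was not tested.

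H3K27ac, a mark of active promoters and enhancers, was peak-called at all 7 genes, with 9 peaks. By the ratio rule (a ratio of means above 1.5, with each OHSC library at least 1.2 times each YHSC library), 1 peak was higher in OHSCs, beside 9.11% of all 39557 peaks. It lay in the gene body of H2-Ab1 (chr17:34264344-34265470), with signals of 2.52 and 2.33 in YHSCs and 3.62 and 4.07 in OHSCs, a ratio of 1.59 beside a median of 1.04 over all peaks. With limma over all peaks its adjusted p was 0.10 and 0 of the 9 peaks passed, while 4 had an unadjusted p below 0.05. Leaving out a library leaves 1 in a group. The ratio then ran from 1.49 to 1.68 for the H2-Ab1 peak, 1.15 to 1.83 for the H2-Eb1 peak and 1.24 to 1.66 for the H2-DMb1 peak. The gene body peak of Ciita, near the gene's 3′ end, had the lowest ratio at 0.677 (1.93 and 1.67 against 1.19 and 1.24). Scaled to the same median signal, the H2-Ab1 peak had a ratio of 1.49 and was not called, and the Ciita gene body peak had 0.636 and was called lower. The 7 others had ratios from 1.08 to 1.43. The strongest was the promoter peak of H2-DMa, at 11.99 and 9.87 in YHSCs and 12.01 and 13.3 in OHSCs, a YHSC level above 98.8% of peaks. It ends before the start of H2-DMa and overlaps Brd2, and its position does not assign it to either gene.

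In YHSCs, H3K4me3, the mark of active starts, had a promoter peak at each of the 7 genes. The signal was 33.0 and 35.7 at H2-DMa (above 99.8% of peaks), 17.8 and 18.5 at H2-Ab1, 10.4 and 10.9 at Ciita, 6.96 and 6.86 at H2-DMb1, 4.63 and 4.79 at Cd74, 4.30 and 4.01 at H2-Aa and 2.56 and 3.602 at H2-Eb1, beside a median of 5.37. The H2-DMa peak covers the start of that gene but lies mostly before it and overlaps Brd2 as well. The order of the marks thus differed from that of the RNA, since Cd74 had the highest RNA level and a promoter signal below the median. At H2-Eb1 a peak in the gene body (11.01 and 11.1) exceeded that at the promoter. H2-DMa (14.1 and 13.4) and Ciita (2.05 and 1.75) also had gene body peaks, below those at their promoters. The H2-DMa gene body peak, at chr17:34135474-34137158, lies outside the windows searched for the X and Y letters. The polycomb mark H3K27me3 had peaks named for 3 members. At Ciita the peak spanned 29999 bases and covered its first start at a mean signal of 0.694 (above 93.5% of peaks), at H2-Ab1 the mean was 0.568 and at the end of H2-DMa 0.483, beside a median of 0.389. The Ciita peak also covers the start that carries H3K4me3 and H3K27ac, and in bulk samples marks on the same molecule and on different cells cannot be told apart.

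To ask whether lowering the shorter Btaf1 variant in OHSCs changes the class II genes, all 4 shRNA libraries were compared with the 2 controls of each experiment. Btaf1 itself, whose gene-level counts cover all its variants, was at 138 and 142 CPM in the cultured controls and 109 to 118 CPM with the shRNAs (log2 fold change -0.31, adjusted p = 0.0015). In transplanted HSCs it was at 161 and 166 CPM against 118 to 139 CPM (-0.37, SE 0.077, adjusted p = 0.79), and it passed an unadjusted p of 0.05 there. All shRNA libraries lay below both controls in each experiment.

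In culture, 2 of the 7 genes rose with knockdown by more than 1.5-fold with an unadjusted p under 0.05, beside 2.45% of all genes. H2-Aa was at 0.709 and 0.433 CPM in the controls, 1.02 and 1.10 with shRNA1 and 2.75 and 1.32 with shRNA2, a log2 fold change of 1.42 (SE 0.45, adjusted p = 0.12). H2-Eb1 was at 1.42 and 0.865 CPM in the controls, 1.82 and 2.25 with shRNA1 and 4.22 and 2.73 with shRNA2 (1.26, SE 0.35, adjusted p = 0.081). For both genes every shRNA library lay above both controls, and far below every transplanted library. With that fold and an adjusted p below 0.05, edgeR called 0 members. DESeq2 gave adjusted p-values of 0.043 for H2-Aa and 0.011 for H2-Eb1, edgeR without the filter 0.0032 and 0.00024, and edgeR with shRNA2 alone 0.012 and 0.0038, so that both genes passed in those fits. H2-Eb1 also passed without shRNA1 replicate 1 (adjusted p = 0.042). The call rests on few reads (16 to 112 counts for H2-Aa), and in the cultured libraries 74.1% of counts from 1 to 9 were even. Whether both reads of a pair were counted was not tested. Without control replicate 2, 0 members were called, and without shRNA2 replicate 2, 3 were called. With shRNA1 alone, H2-Aa was no longer called even at the unadjusted p (log2 fold change 0.88, adjusted p = 0.26), and the 2 members called were H2-Eb1 and Ciita.

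The members with more reads had smaller changes with smaller errors. H2-DMa was at 64.5 and 65.0 CPM in the controls and 78.1, 79.3, 81.9 and 83.4 CPM with the shRNAs (0.32, SE 0.055, adjusted p = 0.0045). H2-Ab1 was at 38.6 and 35.0 against 46.3, 45.0, 44.8 and 49.0 CPM (0.33, SE 0.071, adjusted p = 0.019). Without regard to fold these 2 genes passed an adjusted p of 0.05 in the higher direction, beside 1.7% of all genes, and 5 of the 7 passed an unadjusted p of 0.05, beside 7.72% of all genes. H2-DMb1 was at 34.6 and 34.3 against 38.3 to 44.0 CPM (0.24, adjusted p = 0.11), and Ciita at 0.850 and 0.595 against 0.854 to 1.75 CPM (0.71, adjusted p = 0.38). Cd74 was at 3.24 and 5.00 CPM in the controls, 3.21 and 3.27 with shRNA1 and 6.97 and 4.00 with shRNA2, so that it overlapped (0.088, adjusted p = 0.95) and the means of shRNA1 and shRNA2 lay on opposite sides of the control mean.

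**Figure D4:**
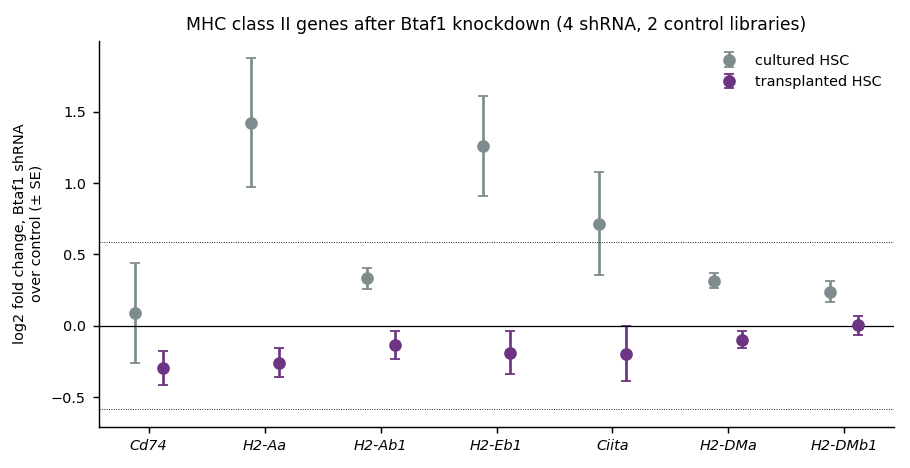
Log2 fold change of each gene after Btaf1 knockdown (points, 4 shRNA against 2 control libraries; bars, SE) in cultured and transplanted HSCs; dotted lines mark a 1.5-fold change. In culture H2-Aa and H2-Eb1 lie highest, and after transplantation all values lie between -0.29 and 0.0027.

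After transplantation 0 of the 7 genes were called in either direction, beside 2.24% of all genes, and DESeq2 also called 0. Cd74 was at 386 and 531 CPM in the controls, 348 and 365 with shRNA1 and 364 and 420 with shRNA2 (-0.29, SE 0.12, adjusted p = 0.88). H2-Aa was at 136 and 178 against 139, 135, 128 and 123 CPM (-0.26, SE 0.10, adjusted p = 0.87). These 2 genes had unadjusted p-values under 0.05 in the lower direction, as had 2.32% of all genes, and both overlapped between groups. The 2 controls stood further apart than the 4 shRNA libraries, and without control replicate 2 the value of Cd74 was -0.047. The other 5 genes had values from -0.20 to 0.0027.

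The difference between the knockdown effects was tested as an interaction over the 12 libraries. It passed for H2-DMa alone of the members (transplanted minus cultured -0.41, SE 0.076, adjusted p = 0.044), as for 45 of 21443 genes. H2-DMa rose in culture and was at 169 and 167 CPM in the transplanted controls against 150 to 165 CPM with the shRNAs. For H2-Aa the difference was -1.67 (adjusted p = 0.33), for H2-Eb1 -1.44 (0.31) and for H2-Ab1 -0.46 (0.20).

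Other genes of the pathway were called after knockdown in culture, and 0 after transplantation. In culture, H2-Ob was higher, at 13.5 and 14.4 CPM in the controls and 23.1 to 24.8 CPM with the shRNAs (0.77, adjusted p = 0.00023), as 1 of 3 other class II genes tested. Over all genes 2.45% were called higher there. Bcl6 was higher (1.55, 1 of 15 regulators tested) and the interferon gamma receptor chain Ifngr2 lower (-0.81, 1 of 15 interferon gamma response genes, beside 0.972% of all genes called lower). By edgeR, 0 of 8 processing, 4 costimulation and 13 class I pathway genes tested were called, with 3, 0 and 1 at an unadjusted p below 0.05. List medians in culture ran from -0.012 (costimulation) to 0.37 (interferon gamma response), beside 0.0038 over all genes. Iigp1 and Gbp7, on the interferon gamma response list and near the members' profile, differed between the shRNAs in culture. Iigp1 had means of 44.2 CPM in the controls, 39.9 with shRNA1 and 149 with shRNA2, and Gbp7 123, 131 and 193 CPM. The other genes of that list are not given by shRNA, and the difference was not tested. After transplantation 0 of 61 genes of these 6 lists were called by edgeR, with 5 at an unadjusted p below 0.05 and medians from -0.055 to 0.31. Over all genes 2.24% were called after transplantation, in either direction. There, H2-DMb2 was at 6.27 and 6.39 CPM in the controls and 3.77 to 7.26 CPM with the shRNAs. Neutrophil markers summed to 6.21 and 109 CPM in the transplanted controls and 57.9 to 520 CPM with the shRNAs, monocyte and macrophage markers to 34.4 to 41.5 and 34.8 to 83.2 CPM. In culture, Ms4a3 of 2 GMP markers tested was called higher (0.60) and Hbb-bs of 4 erythroid markers lower (-0.61). Of 10 HSC markers 0 were called and 3 had an unadjusted p below 0.05. Slamf1 was at 74.8 to 78.3 CPM in the cultured controls and 54.4 to 68.1 CPM with the shRNAs, and Hlf at 146 to 147 and 155 to 169 CPM. The part of these markers' cells was not tested.

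In young myeloid progenitors the classical genes were below the fresh HSC level, while the H2-DM genes were far lower in MEP than in CMP. All 7 genes were called lower in MEP than in CMP (1.5-fold, adjusted p of 0.05), beside 29.2% of all genes called lower. H2-DMb1 was at 40.8 and 44.7 CPM in CMP and 2.17 and 1.42 CPM in MEP (log2 fold change -4.57, SE 0.16, adjusted p = 2e-11), and H2-DMa at 151 and 148 against 21.9 and 23.6 CPM (-2.72, SE 0.074). Cd74 differed by -3.14, H2-Aa by -2.79 and H2-Eb1 by -2.06. H2-Ab1 differed least, at 37.2 and 44.0 against 22.01 and 21.2 CPM (-0.91, SE 0.12). Ciita had 20 and 32 counts in CMP and 10 and 2 in MEP (-1.95, SE 0.79, adjusted p = 0.043). Its value ran from -3.49 to -1.24 with a library left out. Without 1 of the libraries 5 or 6 of the 7 were called.

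In GMP, the progenitors of granulocytes and macrophages, 4 genes were lower than in CMP, beside 10.5% of all genes, namely Ciita (-2.78, with 2 and 4 counts in GMP, adjusted p = 0.025), H2-Aa (-1.14), H2-Ab1 (-0.85) and H2-DMa. H2-DMb1 was at 49.1 and 46.8 CPM in GMP (0.17 against CMP, adjusted p = 0.30) and H2-DMa at 102 and 92.7 CPM (-0.62, SE 0.067, adjusted p = 1.2e-05). Cd74 (-0.85) and H2-Eb1 (-0.70) had an adjusted p of 0.21 each, with GMP libraries at 4.09 and 11.3 CPM for Cd74 and 0.758 and 1.89 CPM for H2-Eb1. With a library left out, Ciita ran from -3.39 to -2.33, H2-Aa from -1.88 to -0.65, Cd74 from -1.76 to -0.29 and H2-Eb1 from -1.50 to -0.18. The other members moved less. With DESeq2, and without CMP replicate 2 or GMP replicate 1, 2 members were called. Between MEP and GMP, 5 genes were lower in MEP, beside 27.2% of all genes, with H2-DMb1 at -4.73 and H2-DMa at -2.09. H2-Ab1 was at 20.8 and 24.4 CPM in GMP and 22.01 and 21.2 CPM in MEP (-0.064, adjusted p = 0.67). Without MEP replicate 2, 2 were called, and without MEP replicate 1 or GMP replicate 2, 3 were called.

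**Figure D5:**
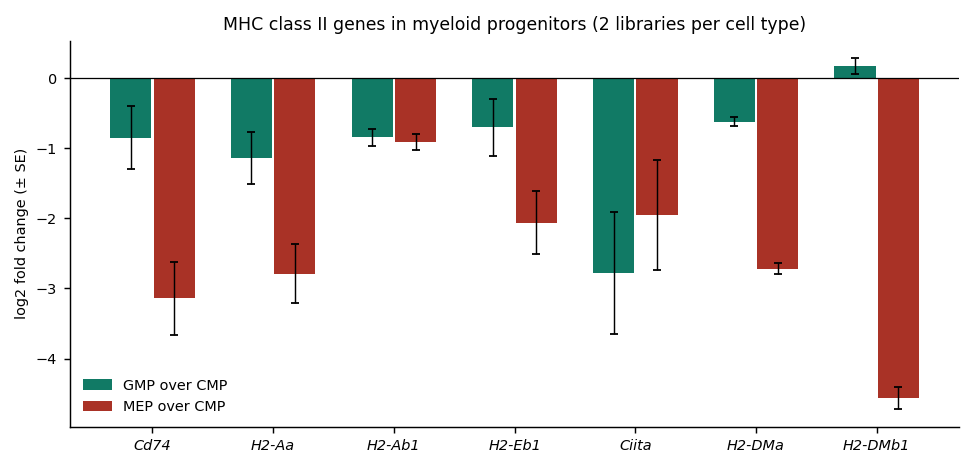
Log2 fold change of each gene in GMP and MEP over CMP (bars, from 2 libraries per cell type; error bars, SE). H2-DMb1 is near 0 in GMP and at -4.57 in MEP, and H2-Ab1 is lower by a like amount in both.

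Set beside fresh YHSCs, CMP had Cd74 at a ratio of 40.4 (YHSC over CMP), H2-Eb1 at 37.4, H2-Aa at 35.8, Ciita at 29.1 and H2-Ab1 at 4.43, but H2-DMb1 at 1.57 and H2-DMa at 0.846. Over MEP the ratios were 358 for Cd74, 249 for H2-Aa, 157 for H2-Eb1, 37.2 for H2-DMb1, 8.33 for H2-Ab1 and 5.56 for H2-DMa. These ratios set separate experiments side by side and were not tested.

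Other genes of the pathway in progenitors were described by the same counts. All 3 other class II genes tested were lower in MEP than in CMP, beside 29.2% of all genes called lower, with H2-Ob at 42.4 and 52.1 CPM in CMP and 0.536 and 1.08 CPM in MEP (-5.86), H2-DMb2 at -3.73 and H2-Oa at -3.66. H2-Ob was higher in CMP than in any HSC library, unlike the classical genes. Of 13 class I pathway genes 11 were lower in MEP and 0 higher (median -1.23, led by the immunoproteasome subunit Psmb8 at -3.28). Of 15 interferon gamma response genes tested 9 were lower (Socs1 at -5.12, Irf1 at -4.06, Gbp3 at -4.01 and Gbp2 at -3.04), of 14 regulators 8 were lower (Irf8 at -9.07 and Spi1 at -7.34) and 2 higher (Zbtb46 at 6.12), and of 4 costimulation genes 3 were lower (Icosl at -6.28). Of 8 processing genes 2 were lower and 4 higher, beside 17.5% of all genes called higher. The median over all genes was -0.066. Between GMP and CMP, 2 of 3 other class II genes were lower (H2-Ob at -2.35 and H2-Oa at -1.64), beside 10.5% of all genes called lower and 6.24% called higher. Of 8 processing genes 1 was higher and 1 lower, of 14 regulators 1 was higher (Spi1 at 0.62) and 0 lower, of 4 costimulation genes 1 was lower, of 13 class I genes 2 were higher and 1 lower, and of 15 interferon gamma response genes 2 were higher and 3 lower. Between MEP and GMP, all 3 other class II genes, 12 of 13 class I and 3 of 4 costimulation genes were lower in MEP and none of them higher. Of 8 processing genes 4 were higher and 2 lower (median 0.44), of 15 interferon gamma response genes 3 were higher and 8 lower, and of 14 regulators 2 were higher and 6 lower, beside 27.2% of all genes called lower and 16.6% called higher. All 10 monocyte and macrophage markers were lower in MEP than in CMP (summed 15.9 to 17.0 against 408 to 491 CPM), as were all 9 HSC markers tested, and all 6 erythroid markers were higher in MEP. Of 5 dendritic cell markers tested, 4 were lower and 1 higher in MEP than in CMP (median -7.30). Against CMP, 3 of them were lower and 0 higher in GMP (median -2.24), where 2 of 10 monocyte and macrophage markers were higher and 0 lower. The part of these cells in the class II differences was not tested.

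Low counts carry a further limit. Among counts of 1 to 9, 74.7% were even in the progenitor, 74.1% in the cultured and 70.9% in the transplanted libraries, against 39.9% in the fresh HSC libraries, and the cause was not tested. The Ciita values in GMP and MEP rest on 2 to 10 counts per library.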

How the data were processed

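The authors deposited raw mRNA-seq counts per gene, made with featureCounts and GENCODE M22 from STAR alignments (mm10) of reads trimmed by trim galore. The sources used here give neither strand nor multi-mapping settings. ATAC-seq counts per consensus region were deposited without normalization. For histone marks, the authors deposited a signal per peak and replicate from libraries scaled to a fixed number of reads. Columns with the authors' own fold changes were not used, nor were 8 per-sample columns that no listed sample could be tied to (4 ATAC-seq, 4 histone). The 92 ERCC rows were left out.

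Counted reads per library were 20475764 to 24654742 in fresh HSCs, 37292602 to 42737054 in culture, 37601706 to 42142361 after transplantation, 33177394 to 36510850 in progenitors and 15427933 to 26260337 in ATAC-seq. No pair of mRNA-seq libraries of the same group agreed within sampling noise, and other pairs were not compared. YHSC libraries are pools of mice and OHSC libraries individual mice, so SDs and p-values between ages draw on unlike spreads. Transplanted replicates are pools of recipients. For cultured and progenitor replicates the sources used here do not name separate cultures or animals. The p-values of cultured and progenitor samples thus measure the spread between these samples, which may be technical.

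With R 4.3.3, edgeR 4.0.16 (TMM, filterByExpr, robust quasi-likelihood test, Benjamini-Hochberg adjustment over all genes) was the test for counts within each experiment, DESeq2 1.42.0 an alternative, and limma 3.58.1 on log2(signal + 0.5) the alternative for H3K27ac. Calls between ages and progenitors needed an adjusted p below 0.05 with more than a 1.5-fold change, and knockdown calls the same fold with an unadjusted p below 0.05. ATAC-seq regions needed more than 1.5 CPM in at least 4 libraries and an adjusted p below 0.01; promoter regions overlapped 1000 bases before to 100 bases after a curated RefSeq start. CPM use TMM-scaled totals of each experiment, and lengths are merged GENCODE M21 exons. The fits were tested on simulated counts. Alternatives were other normalization, no filter, other folds, single shRNAs, replicate blocks and leaving out each library. The text names the 7 members, up to 4 called genes per list with the largest change, and the 10 genes most like the members among those with a mean of at least 1 CPM. The members, lists and rules were chosen with earlier results of these data known.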

Additional observations from a re-analysis of the deposited data

Results flagged for a closer look

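In YHSC replicate 1, H2-DMa stood at 119 CPM, below the 129, 128 and 129 CPM of the other replicates, and its gap to the nearest of them was 0.895 of the group's range, above Dixon's critical value of 0.829. Of 30 groups of values tested in this way chance would be expected to mark about 1 in 20. The knockdown effect on H2-DMa differed between the experiments, with a difference of -0.41 on the log2 scale (transplanted minus cultured, adjusted p = 0.044 in edgeR's interaction test); the direction was up in all 4 cultured and down in all 4 transplanted shRNA libraries against both controls of the same experiment.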

How the results depend on the processing

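Between ages, 0 members were called under each alternative that was run, and in transplanted HSCs likewise. In culture, edgeR called 0 members at an adjusted p below 0.05, while H2-Aa and H2-Eb1 passed that p with DESeq2 (0.043 and 0.011), without the filter (0.0032 and 0.00024) and with shRNA2 alone (0.012 and 0.0038). At the unadjusted p, 0 to 3 members were called when each library was left out in turn. Between GMP and CMP DESeq2 called 2, and leaving out libraries gave 2 to 4, against 5 to 6 between MEP and CMP and 2 to 5 between MEP and GMP. At the open regions, 2 were called without the filter and 0 to 1 with a library left out, where 8623 to 10575 of all regions were called. Of the H3K27ac peaks, limma passed 0.

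Small values changed sign. H2-Aa between ages was -0.0054 with DESeq2 and -0.0053 with its size factors, and -0.074 to 0.11 with a library left out. H2-Ab1 between ages was 0.13 against YHSC replicates 1 and 2 and 0.056 in OHSC replicates 1 to 4, both chosen after seeing the data, and -0.14 to 0.050 with a library left out. In culture Cd74 was -0.34 with shRNA1 alone and -0.23 to 0.43 with a library left out. After transplantation H2-DMb1 was -0.0039 without the filter, -0.0070 with shRNA1 alone and -0.023 to 0.028 with a library left out, H2-Ab1 -0.30 to 0.055 and H2-Eb1 -0.44 to 0.12. Between MEP and GMP H2-Ab1 was -0.18 to 0.053 and Ciita -0.71 to 1.54. The promoter region of H2-DMb1 was -0.017 without the filter and -0.014 to 0.047 with a library left out. The causes were not tested.

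Deviations of same-numbered YHSC and OHSC libraries correlated at 0.10, -0.20, 0.0091 and -0.24, so their numbers were not taken to pair them. Same-numbered progenitor libraries correlated at 0.12 (CMP and GMP), 0.046 (CMP and MEP) and 0.037 (GMP and MEP), and shRNA and control libraries at -0.052 to 0.083. With 2 libraries a group and no label that ties the numbers to a batch, these were not treated as pairs either. With the replicate block 0 members were called between ages (H2-Ab1 turned to 0.052), 2 in culture, 0 after transplantation, 6 between MEP and CMP, 5 between GMP and CMP and 5 between MEP and GMP. Over all genes the block called 1406 of 20585 between ages. In each comparison its count over all genes was within 1.5 times of that without the block. Counts over all genes moved by over 1.5 times between ages with folds of 1.2 (3045) and 2 (873, from 1618), in culture at an adjusted p (179) and without the filter (1066, from 676), after transplantation at an adjusted p (0), without the filter (728) and with shRNA2 alone (758, from 455), for open regions with folds of 1.2 (18736) and 2 (4823, from 11591), and for H3K27ac with limma (911) and without YHSC replicate 1 (8152, from 4500).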
